A study of Sus scrofa with 26 samples.

Results

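The chaperonins are barrel-shaped complexes that enclose an unfolded protein and help it to fold, and the genes described here are the 8 subunits of the cytosolic chaperonin CCT/TRiC (TCP1, CCT2, CCT3, CCT4, CCT5, CCT6A, CCT7 and CCT8) with the mitochondrial pair HSPD1 (HSP60) and HSPE1 (HSP10). They were chosen by name: every non-control probe whose gene symbol, accession or description named one of these 10 genes was taken. This gave 49 probes for 9 of the 10 genes, out of 9967 named genes with a tested probe; CCT6A had no such probe and was not analysed here. HSPD1 had 21 probes, TCP1 7, HSPE1 6, CCT2 4, CCT8 3, and CCT3, CCT4, CCT5 and CCT7 2 each. All 49 probes passed the filter on dim probes, and 48 of them were well above background on all 26 arrays.

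RNA of subcutaneous adipose tissue (SCAT, back fat) from castrated pigs was hybridised to 1-colour Agilent arrays, 1 pig per array. The pigs were Creole, Large White (LW) or the LW by Creole cross (F1), and entered a climatic room at 11 weeks of age. Thermoneutral (TN) pigs were kept at 24 °C and killed before the room was warmed, whereas heat-stressed (HS) pigs were killed after the rise; the sample labels give 30 °C for these pigs and the series text gives 32 °C for 5 days. There were 3 Creole TN, 4 F1 TN, 4 LW TN, 5 Creole HS, 5 F1 HS and 5 LW HS arrays, hence 11 TN and 15 HS arrays, and 8 Creole, 9 F1 and 9 LW arrays. Because all TN pigs were killed first, temperature cannot be told apart from the day and the age at slaughter. In the study each breed had 3 blocks of littermates, which were spread over pens of both temperatures but not over breeds. Breed differences therefore rest on few litters. The labels do not tie arrays to litters or pens, so the p-values measure the spread between pigs without these terms.

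CCT/TRiC is a double ring of different subunits that uses ATP and is best known for folding actin and tubulin, with prefoldin handing over the newly made chains and phosducin-like proteins acting as cofactors. HSPD1 forms the folding chamber of the mitochondrial matrix and HSPE1 is its lid. HSPD1 and HSPE1 are known as targets of the heat shock factor HSF1 and are next to each other in the RefSeq gene table of the pig (Sscrofa11.1). In fat cells, mitochondria supply the energy and precursors for making and breaking down stored fat, while actin and tubulin hold the thin cytoplasm around the lipid droplet.

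The array measures each gene with DNA probes of 60 bases, and the probe sequences deposited with the arrays show what was read. They are given here for the genes on which the results turn, either whole or, where a line says "from", as a stretch of 29 or 30 bases of the probe. For CCT3 and CCT8, which were lower in HS, 2 different probes of each gene passed the test (for CCT8 not in most fits made without a single array), and the 2 share no run of more than 7 bases in CCT3 or 5 in CCT8, so they read different stretches of the transcript.

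CCT3, from A_72_P382188: tcttctctattgtaagctttccatttagtt
CCT3, whole A_72_P080521: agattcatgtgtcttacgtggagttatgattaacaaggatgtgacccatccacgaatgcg
CCT8, from A_72_P202637: ttctccttaaattaagaagtgttttgtgtt
CCT8, whole O10713: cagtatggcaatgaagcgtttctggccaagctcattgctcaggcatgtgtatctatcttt

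For TCP1 and HSPD1, which were lower in LW, several probes overlap and are not separate evidence. The capitals in the next lines mark the shared runs of at least 10 bases in the 2 probes of a pair, and the HSPD1 stretch given before its pair is held whole by 3 of the probes (A_72_P695270, A_72_P590009 and A_72_P566339).

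TCP1, from A_72_P694296: tgtccactctggagcccttgagactgatcg
TCP1, whole A_72_P079966: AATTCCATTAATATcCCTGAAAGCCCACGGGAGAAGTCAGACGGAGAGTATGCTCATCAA
TCP1, whole A_72_P607088: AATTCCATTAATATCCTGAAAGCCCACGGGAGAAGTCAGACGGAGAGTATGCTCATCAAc
HSPD1, from A_72_P695270: gacgacatagaatggtttactgctgtcatt
HSPD1, whole A_72_P682104: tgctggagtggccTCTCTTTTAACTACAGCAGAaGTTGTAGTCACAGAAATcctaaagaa
HSPD1, whole A_72_P637639: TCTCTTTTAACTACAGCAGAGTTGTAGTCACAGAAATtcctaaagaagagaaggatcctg
HSPD1, whole A_72_P625612: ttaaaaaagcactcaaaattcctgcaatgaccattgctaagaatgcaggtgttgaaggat

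The remaining lines show the HSPD1 probes that did not follow the others in LW, a pair of HSPE1 probes that overlap in part, and the CCT5 probe with the widest spread among the CCT probes chosen to stand for their genes. The stretch of A_72_P665246 is shared by A_72_P261027 and A_72_P608427, whereas A_72_P611693 holds a counterpart of 29 bases that differs from it by 1 edit. In the HSPE1 pair the capitals mark the shared blocks of 10 and 15 bases, which are parted by A11G, counted from the 5′ end of O8477, where O8477 is given first and A_72_P752325 after it.

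HSPD1, from A_72_P665246: tggagagtaagaataattgtgtacagagta
HSPD1, from A_72_P611693: tggagagtaagaataatttgtacagagta
HSPD1, whole A_72_P110291: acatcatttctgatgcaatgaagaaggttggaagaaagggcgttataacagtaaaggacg
HSPD1, whole O3429: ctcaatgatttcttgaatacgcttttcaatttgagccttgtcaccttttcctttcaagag
HSPE1, from A_72_P137646: aagttctgagatcttttcatcatgtaaata
HSPE1, whole A_72_P752325: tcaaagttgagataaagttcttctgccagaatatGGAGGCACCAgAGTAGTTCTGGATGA
HSPE1, whole O8477: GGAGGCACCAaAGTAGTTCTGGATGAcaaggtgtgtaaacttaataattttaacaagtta
CCT5, whole O14583: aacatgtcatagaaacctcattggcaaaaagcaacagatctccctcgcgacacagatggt

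Between 41314 and 46185 of the 60306 spots were well above background on an array, and no spot was saturated. All 10 adipocyte markers looked for, such as ADIPOQ and PLIN1, were well above background on all 26 arrays. Each array is a mixture of cell types, in which fewer cells of a type and less RNA per cell cannot be told apart. Values below are log2 intensities after quantile normalisation, and a gene is represented by its brightest probe. A difference is said to pass the test when its Benjamini-Hochberg adjusted p in limma, over all 44703 probes tested, was under 0.05.

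The question of the first comparison was how the chaperonin transcripts differed between HS and TN once breed was accounted for. Of the 9 genes, CCT3 and CCT8 fell in HS, none rose, and the other 7 did not pass. Both are subunits of the cytosolic ring, each binding ATP. In the background, 7.68% of all named genes had a representative probe that fell, beside 22.2% of these 9, which is 2 genes. The median change of the 9 genes was −0.06, beside −0.0046 over all named genes.

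CCT3 was the chaperonin gene with the clearest temperature difference. In TN its values were 13.43, 13.47 and 13.60 in Creole, 13.34, 13.35, 13.40 and 13.58 in F1, and 13.38, 13.40, 13.41 and 13.50 in LW. In HS they were 12.91, 13.00, 13.18, 13.32 and 13.50 in Creole, 13.21, 13.23, 13.24, 13.40 and 13.53 in F1, and 12.99, 13.01, 13.02, 13.09 and 13.15 in LW. The groups overlapped only through 3 HS arrays, 1 Creole and 2 F1, since the other 12 of 15 HS arrays lay below every TN array. The change was −0.26 (SE 0.059), or 1.20-fold lower in HS, with an adjusted p of 0.0058 in limma, and 13 of 15 HS arrays lay below the TN mean of their breed. The other CCT3 probe, A_72_P080521, fell by 0.27 (SE 0.072, adjusted p = 0.0146 in limma). Within each of the 5 slides, all of which held both temperatures, CCT3 was lower in HS, by −0.30 to −0.15.

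CCT8 differed less and its groups overlapped more. In TN it read 12.40, 12.47 and 12.53 in Creole, 12.18, 12.28, 12.29 and 12.55 in F1, and 12.27, 12.31, 12.41 and 12.59 in LW. In HS it read 12.16, 12.21, 12.25, 12.34 and 12.54 in Creole, 12.07, 12.15, 12.27, 12.38 and 12.46 in F1, and 11.98, 12.03, 12.05, 12.13 and 12.22 in LW. Thus 7 of the 15 HS arrays lay below every TN array and no HS array lay above them all. The change was −0.18 (SE 0.058), 1.13-fold lower, with an adjusted p of 0.0421 in limma. The probe O10713 fell by 0.21 (adjusted p = 0.0484 in limma), whereas the dim probe A_72_P236912, named from its description, had a change of 0.02 (adjusted p = 0.938 in limma). Counted over the probes of CCT8, the 2 that passed became 0 to 2 in the fits made without a single array, in 22 of which the count was lower. It was also lower under 8 of 13 other settings. The highest value of A_72_P236912, 7.96 in a Creole HS array, stood above all others, which reached 6.87. The CCT8 call was close to the threshold: 16 of the 26 fits made without a single array no longer passed, with changes of −0.20 to −0.15 and adjusted p-values of 0.0193 to 0.0821 in limma. It was also lost with slide as a fixed block, cyclic loess, no filter, the mean of all probes, no breed term or the red blood cell covariate.

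The other CCT subunits gave changes of −0.15 for CCT5 (adjusted p = 0.387 in limma), −0.09 for CCT2 (0.25), −0.02 for CCT7 (0.748), 0.05 for TCP1 (0.561) and 0.07 for CCT4 (0.341). The 95% interval of TCP1 ran from −0.06 to 0.16 and that of CCT7 from −0.11 to 0.06. For CCT5 the interval was wider, from −0.36 to 0.07. For CCT4 the brightest probe and O7878 lay on opposite sides of 0, the latter at −0.13 (adjusted p = 0.107 in limma).

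Neither mitochondrial chaperonin passed the test for temperature. HSPD1 had a change of −0.06 (95% interval −0.19 to 0.06, adjusted p = 0.557 in limma) and HSPE1 one of −0.02 (−0.21 to 0.18, adjusted p = 0.93). All 21 HSPD1 probes had a negative sign, from −0.33 to −0.03, but none passed, the lowest adjusted p being 0.0671 in limma for A_72_P611693. These probes overlap one another, so their common sign is not 21 measurements. The count of HSPD1 probes that passed, 0, became 1 in 7 of the 26 fits made without a single array. It rose to at most 2 under the other settings tried, changing in 2 of 13. Of all 49 probes of the chaperonin genes, 4 passed and all 4 were lower in HS, beside 7.02% of all probes tested.

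**Figure D1:**
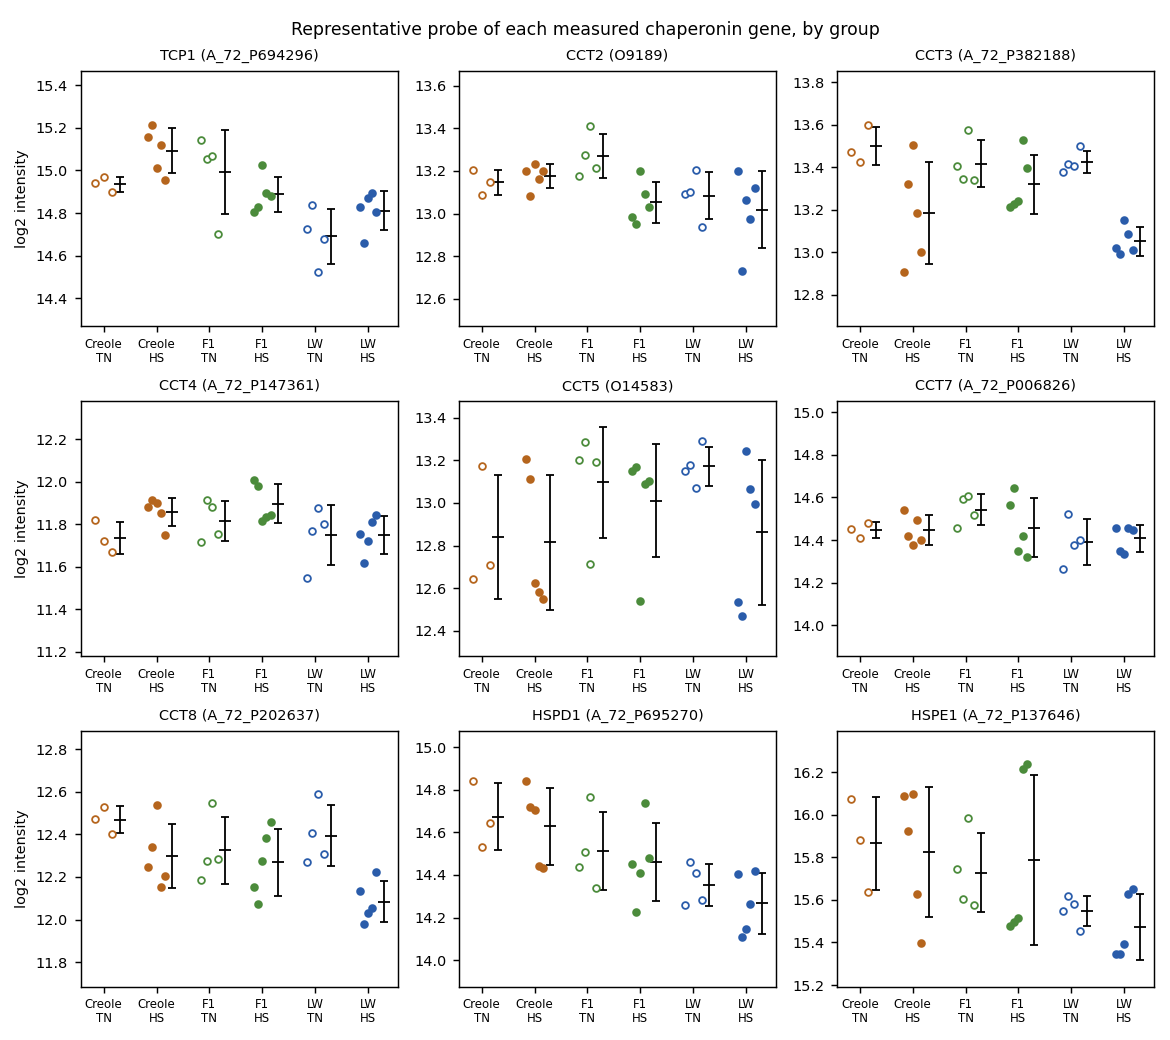
Log2 intensity of the representative probe of each of the 9 measured genes (vertical axis, the same span in each panel) in the 6 groups of breed and temperature (horizontal axis), with 1 point per array (open TN, filled HS) and the group mean ± SD in black. CCT3 sits lower in all 5 LW HS arrays than in the 4 LW TN arrays, and the LW arrays of TCP1 and HSPD1 sit below most or all Creole arrays.

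Of the 5 tested of 9 red blood cell markers 1 passed for temperature. It was HBB, a globin chain, which fell by 0.85 in HS (adjusted p = 0.011 in limma). AHSP at −0.47 (adjusted p = 0.0521 in limma) and HEMGN at −0.11 (0.563) did not pass. Nor did ALAS2 at 0.04 (0.884) and SLC4A1 at 0.06 (0.71). The mean log2 level of these markers, centred over arrays, lay between −0.09 and 0.46 in TN and between −0.58 and 0.32 in HS. With it as a covariate, CCT3 was at −0.22 (adjusted p = 0.107 in limma) and CCT8 at −0.17 (adjusted p = 0.217), and 911 probes passed in place of 5452. Matrix genes of fibroblasts also rose in HS (COL1A1, COL1A2, COL3A1 and DCN, 4 of 8), with a centred mean between −1.01 and 0.25 in TN and between −0.31 and 0.62 in HS. Of the 10 adipocyte markers ADIPOQ rose in HS by 0.16 (adjusted p = 0.0379 in limma), with a centred mean of the list between −0.17 and 0.26 in TN and between −0.26 and 0.37 in HS. Single markers of other cells passed too: PMP22 (0.40) of Schwann cells and MS4A2 (0.27) of mast cells rose in HS, and the endothelial CDH5, 1 of 6, fell by 0.23. The part of these in the CCT3 and CCT8 results was not tested beyond the red blood cell covariate.

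The temperature change was then read within each breed, in a fit of the 6 group means. In LW, CCT3 was lower in HS by −0.37 (SE 0.095, adjusted p = 0.0467 in limma). Its 5 HS arrays read 12.99 to 13.15 and the 4 TN arrays 13.38 to 13.50. How many of all probes part the LW arrays in this way was not counted. CCT3 was the 1 gene of 9 and the 1 probe of 49 that passed in LW, beside 1.11% of all probes lower in HS there. CCT8 in LW had a change of −0.31 (adjusted p = 0.0914 in limma), with 5 of 5 HS arrays below the TN mean. The LW call for CCT3 was lost in 19 of the 26 fits made without a single array, in which the change lay between −0.40 and −0.35. It was also lost under 7 of 12 other settings, among them slide as a fixed block, with adjusted p-values up to 0.312 in limma.

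In Creole and F1 no chaperonin probe passed, beside 0.0537% and 0.421% of all probes tested. At an unadjusted p under 0.05, 1 of the 9 genes was found in each, beside 1108 of the 9967 named genes in Creole and 1570 in F1. These were CCT3 in Creole, at −0.32 (adjusted p = 0.248 in limma), and CCT2 in F1, at −0.22 (adjusted p = 0.185). In F1, CCT3 had a change of −0.10 (adjusted p = 0.663). The differences between breeds in the temperature change were tested as an interaction, for which 0 of 9 genes passed in limma, 0 had an unadjusted p under 0.05, and the lowest adjusted p was 0.897; 0.00224% of all probes passed. The CCT3 change in LW is therefore not shown to differ from that in the other breeds.

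**Figure D2:**
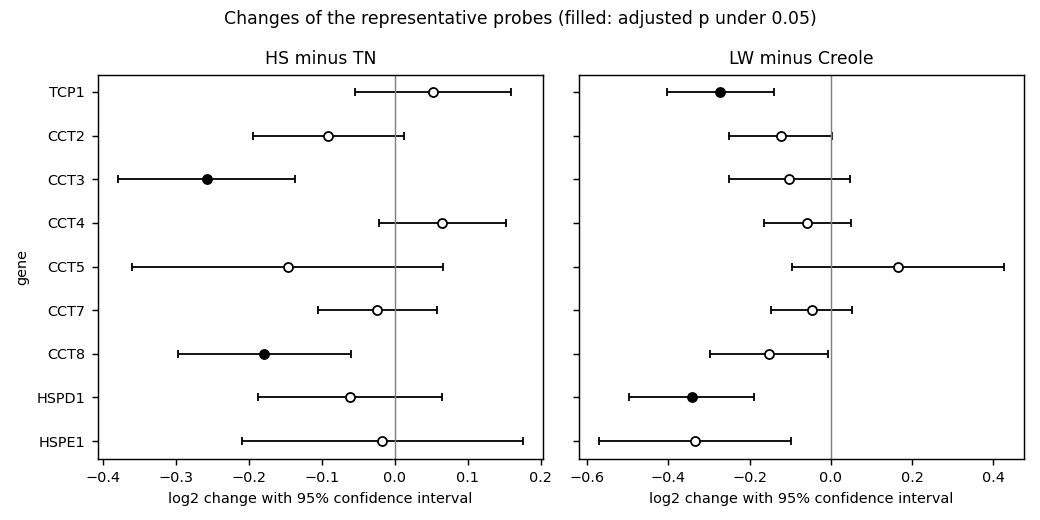
Log2 change of each representative probe (horizontal axis) with its 95% confidence interval for HS minus TN (left) and LW minus Creole (right), 1 row per gene, filled where the adjusted p was under 0.05. The intervals of CCT3 and CCT8 lie below 0 for HS minus TN. For LW minus Creole those of HSPD1, TCP1, HSPE1 and CCT8 lie below 0, and only HSPD1 and TCP1 are filled.

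The breeds were then compared with temperature accounted for. HSPD1 and TCP1 were lower in LW than in Creole, 2 of 9 genes, beside 8.61% of all named genes lower in LW. The median difference of the 9 genes was −0.12, beside −0.01 over all named genes. HSPD1 is the mitochondrial folding chamber and TCP1 the subunit for which the cytosolic complex was named.

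HSPD1 was at 14.53, 14.64 and 14.84 in Creole TN and at 14.43, 14.44, 14.70, 14.72 and 14.84 in Creole HS. In LW it was at 14.26, 14.28, 14.41 and 14.46 in TN and at 14.11, 14.14, 14.26, 14.40 and 14.42 in HS. Thus 8 of the 9 LW arrays lay below every Creole array, the exception being an LW TN array at 14.46. F1 overlapped with both, at 14.34, 14.44, 14.51 and 14.76 in TN and 14.22, 14.41, 14.45, 14.48 and 14.74 in HS. The difference of LW from Creole was −0.34 (SE 0.075), 1.27-fold lower, with an adjusted p of 0.00418 in limma, and it was lower in LW within each of the 4 slides that held both breeds (−0.52 to −0.09).

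HSPD1 mean levels ran in the order Creole TN 14.67 ± 0.16 (SD, n = 3), Creole HS 14.63 ± 0.18 (n = 5), F1 TN 14.51 ± 0.18 (n = 4), F1 HS 14.46 ± 0.18 (n = 5), LW TN 14.35 ± 0.099 (n = 4) and LW HS 14.27 ± 0.14 (n = 5). Neighbours in this order differed by less than the larger of their SDs, whereas the Creole and LW ends of it differed by more than the SD of any group.

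Most HSPD1 probes gave the same result as the brightest. Of the 21, 15 were lower in LW, by −0.47 to −0.34, and 6 did not pass. The lowest values were those of A_72_P625612 (−0.47) and A_72_P637639 (−0.47), and of the 3 that share the stretch printed for A_72_P695270, all passed. The overlapping A_72_P682104 was at −0.39. Those that did not pass were A_72_P110291 at −0.28 (adjusted p = 0.0546 in limma), A_72_P261027 at −0.24 (0.0504), A_72_P608427 at −0.23 (0.0561), A_72_P665246 at −0.12 (0.398), O3429 at 0.03 (0.876) and A_72_P611693 at 0.11 (0.676). Of these 6, 4 lie in 1 region, as they share the stretch given for A_72_P665246 or its counterpart. The description of O3429 lists HSPD1 pseudogenes, so that its signal cannot be assigned to HSPD1 alone. Nor is it settled which strand O3429 reads, as no transcript sequence was used here, so it may not measure the HSPD1 message at all, and its mean log2 intensity was 6.40.

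TCP1 was the chaperonin gene whose brightest probe did not overlap between the breeds. In Creole it was at 14.90, 14.94 and 14.97 in TN and at 14.96, 15.01, 15.12, 15.16 and 15.21 in HS. In LW it was at 14.52, 14.68, 14.72 and 14.84 in TN and at 14.66, 14.80, 14.83, 14.87 and 14.89 in HS. All 9 LW arrays lay below all 8 Creole arrays, which held for 0.371% of all probes tested, but only just: the highest LW array was at 14.892 and the lowest Creole array at 14.897. The difference was −0.27 (SE 0.064), 1.21-fold lower, with an adjusted p of 0.00645 in limma, and it was negative within each of 4 slides (−0.36 to −0.14).

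Of the 7 TCP1 probes, 4 were lower in LW and all 7 had a negative sign. The brightest probe shares 24 bases with A_72_P155521 and A_72_P687019, and each of these shares 30 with A_72_P699026. The dim A_72_P650275, at a mean log2 intensity of 6.36, shares 22 with A_72_P699026 and did not pass, at −0.13. All of these probes read 1 region and are not separate evidence. Among these, A_72_P155521 and A_72_P687019 carry the same 60 bases, and their differences were −0.22 and −0.27. On these the breeds overlapped, with LW up to 12.80 and Creole from 12.73 on A_72_P155521, and LW up to 12.76 and Creole from 12.64 on A_72_P687019. The overlapping pair printed above did not pass, at −0.14 (adjusted p = 0.277 in limma) for A_72_P079966 and −0.14 (adjusted p = 0.261) for A_72_P607088. F1 values of TCP1 were 14.70, 15.05, 15.07 and 15.14 in TN and 14.81, 14.83, 14.88, 14.89 and 15.02 in HS, so that they overlapped with both parental breeds.

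HSPE1 had a difference about as large as that of HSPD1, but with a wider spread. In Creole it was at 15.64, 15.88 and 16.07 in TN and at 15.40, 15.63, 15.92, 16.09 and 16.10 in HS. In LW it was at 15.45, 15.55, 15.58 and 15.62 in TN and at 15.35, 15.35, 15.39, 15.63 and 15.65 in HS. All 9 LW arrays lay below the Creole median, and 3 lay below every Creole array. F1 arrays read 15.58, 15.61, 15.74 and 15.98 in TN and 15.48, 15.49, 15.52, 16.21 and 16.24 in HS, the last 2 being above all other arrays of the series. The difference was −0.33 (SE 0.115), with an adjusted p of 0.0508 in limma that missed the threshold. HSPE1 passed for 2 of its 6 probes, A_72_P746004 at −0.41 (adjusted p = 0.0123 in limma) and A_72_P752325 at −0.35 (adjusted p = 0.0258). That count ran from 1 to 5 in the fits made without a single array and from 1 to 5 over the other settings tried.

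For the remaining CCT subunits the LW minus Creole differences of the brightest probes did not pass. They were −0.15 for CCT8 (adjusted p = 0.15 in limma), −0.12 for CCT2 (0.183), −0.10 for CCT3 (0.366), −0.06 for CCT4 (0.489), −0.05 for CCT7 (0.557) and 0.17 for CCT5 (0.414). Their other probes did not always follow them: the CCT3 probe A_72_P080521 was lower in LW by −0.30 (adjusted p = 0.0244 in limma), the CCT8 probe O10713 by −0.31 (adjusted p = 0.0143), and the CCT2 probe A_72_P055026, named from its description, was higher by 0.23 (adjusted p = 0.00762). Over all chaperonin probes 23 of 49 were lower in LW and 1 was higher, beside 7.43% of all probes lower. Of those 23, 15 are HSPD1 probes, so that this share is mainly the share of 1 gene.

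Adipocyte markers were not level between the breeds. Of the 10, LEP (leptin, −1.23) and GPD1 (−0.27) were lower in LW, and their centred mean lay between 0.01 and 0.37 in Creole and between −0.26 and 0.00 in LW, without overlap. Fibroblast matrix genes were higher in LW for 3 of 8, with a centred mean of −1.01 to 0.26 in Creole and −0.11 to 0.62 in LW. The 11 skeletal muscle markers passed in no case, but their centred mean ranged from −1.35 to 2.76 in Creole and from −2.31 to 1.84 in LW. Among mast cell markers KIT was higher in LW by 1.98 while HDC (−0.62) and MS4A2 (−0.34) were lower, 3 of 3 tested, with a centred mean of −0.52 to 0.20 in Creole and −0.11 to 0.45 in LW. Of 6 endothelial markers KDR was higher in LW by 0.87, with a centred mean of −0.41 to 0.14 in Creole and −0.03 to 0.16 in LW. Of 6 Schwann cell and nerve markers PMP22 (0.33) and NCAM1 (0.35) were higher in LW, with a centred mean of −0.37 to 0.33 in Creole and −0.41 to 0.53 in LW, and of 3 B cell markers CD79B was higher by 0.42. The part of all these in the HSPD1 and TCP1 differences was not tested.

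**Figure D3:**
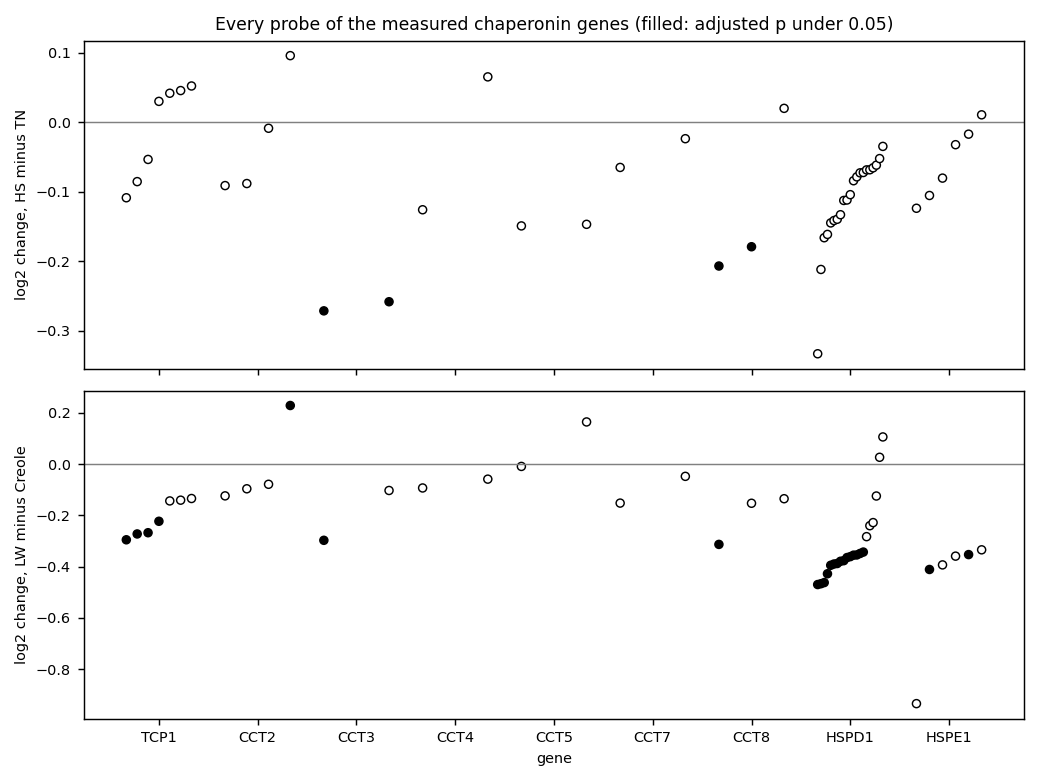
Log2 change (vertical axis) of every one of the 49 probes by gene (horizontal axis), with HS minus TN and LW minus Creole in separate panels, filled where the adjusted p was under 0.05. The HSPD1 probes that passed lie between −0.47 and −0.34 for LW minus Creole and the other 6 between −0.28 and 0.11, whereas for HS minus TN all 21 lie between −0.33 and −0.03 and none is filled.

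In F1 the chaperonins were compared with both parental breeds. Against Creole no probe of the 49 passed, beside 0.262% of all probes, and HSPD1 had a difference of −0.16 (adjusted p = 0.465 in limma); at an unadjusted p under 0.05 there was 1 of the 9 genes, beside 985 of the 9967 named genes. Against LW 0 of 9 genes passed in limma, with a positive sign in all 9 and an unadjusted p under 0.05 in 5, beside 2109 of the 9967 named genes at that p and 47.2% of them with a negative sign. TCP1 was at 0.18 (adjusted p = 0.0979), HSPD1 at 0.18 (0.156) and HSPE1 at 0.25 (0.187).

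Among probes, 9 of 49 were higher in F1 than in LW, beside 2.46% of all probes, and 1 was lower. The 9 were 4 of HSPD1, 2 of HSPE1 and 1 each of TCP1, CCT3 and CCT7. The HSPE1 probes were A_72_P746004 at 0.46 (adjusted p = 0.0194 in limma) and A_72_P752325 at 0.42 (adjusted p = 0.0249), the same 2 that were lower in LW than in Creole. On A_72_P746004 the LW arrays read 13.75, 13.97, 14.18 and 14.26 in TN and 13.91, 14.004, 14.02, 14.21 and 14.39 in HS. The F1 arrays read 14.19, 14.55, 14.59 and 14.61 in TN and 14.16, 14.42, 14.56, 14.83 and 14.87 in HS, so that the breeds overlapped between 14.16 and 14.39. These comparisons share the LW arrays and are not independent of each other. Tested as any difference among the 3 breeds, 2 of 9 genes and 26 of 49 probes passed, beside 11.3% of all probes.

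A pair of probes spread over the arrays in a way that the groups did not account for. The HSPE1 probe O8477 read between 9.26 and 9.996 on 5 arrays (2 F1 TN, 2 F1 HS and 1 LW HS) and between 12.43 and 14.58 on the other 21, with nothing between. The gap of 2.43 exceeded the largest gap of any of the other 48 probes, 1.09, which was that of the CCT8 probe A_72_P236912. All 8 Creole arrays were in the upper set. The F1 arrays of slide 1 (F1 HS 1, F1 HS 2 and F1 TN 1) were all in the lower set. The remaining array of that slide, Creole HS 1, read 14.36. Of the other low arrays LW HS 1 was on slide 2 and F1 TN 4 on slide 4. The part of the slide in this split was not tested. The HSPE1 probe A_72_P752325, which shares 25 bases with O8477 and differs at A11G, had no such split. In deviations from the 6 group means, O8477 had r = −0.04 with A_72_P752325 and −0.01 with A_72_P746004. It had r = 0.64 with A_72_P137646, 0.65 with A_72_P073221 and 0.64 with A_72_P725658.

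The CCT5 probe O14583 read between 12.47 and 12.71 on 9 arrays and between 12.99 and 13.29 on 17. The lower set held 2 Creole TN, 1 F1 TN, 3 Creole HS, 1 F1 HS and 2 LW HS arrays and no LW TN array. The other CCT5 probe, A_72_P418279, had a temperature change of −0.15 (adjusted p = 0.114 in limma) beside −0.15 for O14583, and a breed difference of −0.01 beside 0.17. No genotype is given in the labels, so that what parts the arrays was not tested.

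**Figure D4:**
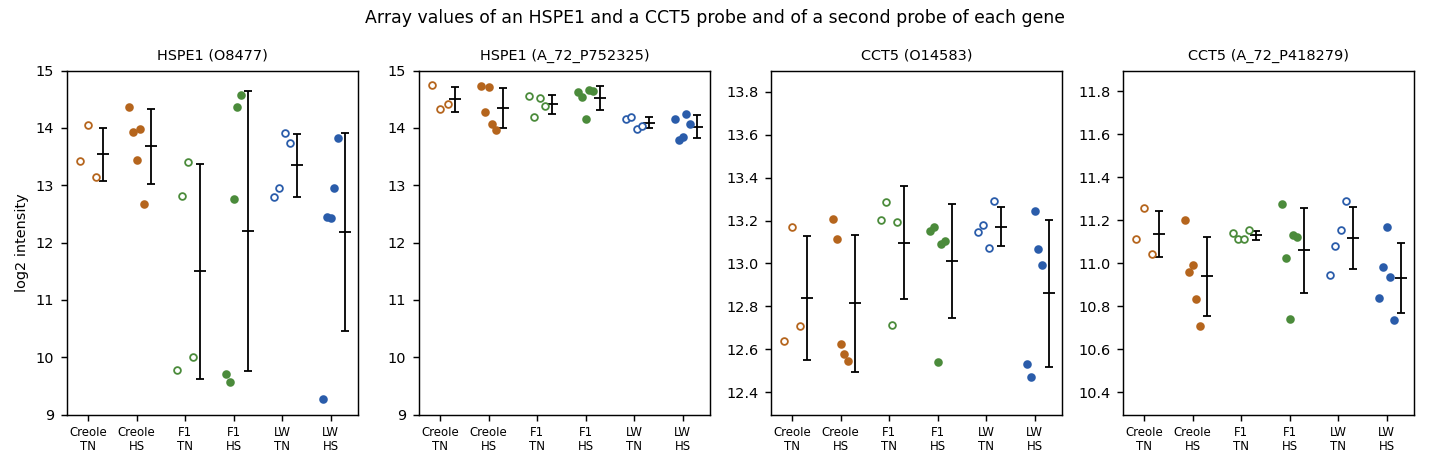
Log2 intensity (vertical axis) of HSPE1 probe O8477 and CCT5 probe O14583, each beside another probe of its gene, in the 6 groups (horizontal axis), with 1 point per array (open TN, filled HS) and the group mean ± SD in black. For O8477, 5 arrays of the F1 and LW groups lie at or below 9.996 and all others at or above 12.43.

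It was then asked whether the chaperonin genes went up and down together from pig to pig within a group, using deviations from the 6 group means in the 26 arrays. Of the 36 pairs of genes, 28 had a positive correlation, with a median r of 0.19, and 6 passed a two-sided permutation test within groups (100000 resamples, Benjamini-Hochberg over the pairs). The pair with the highest value was HSPD1 with HSPE1, the chamber and its lid, at Pearson's r = 0.72 (permutation p = 0.00029, adjusted 0.0104) and Spearman's rho = 0.73 (permutation p = 0.00034, adjusted 0.0122). Without the 2 arrays farthest from the HSPD1 median r was 0.65, and with slide also removed it was 0.74.

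CCT8 went with both mitochondrial genes, at r = 0.69 with HSPE1 (rho 0.67, permutation p = 0.00099, adjusted 0.0178) and r = 0.65 with HSPD1 (rho 0.69, permutation p = 0.00195, adjusted 0.0234). CCT2 went with HSPD1 at r = 0.53 (rho 0.56, permutation p = 0.00603, adjusted 0.0362) and with CCT8 at r = 0.54 (rho 0.58, permutation p = 0.00539, adjusted 0.0362). CCT4 and CCT7 had r = 0.64 (rho 0.67, permutation p = 0.00363, adjusted 0.0327). The adjusted permutation p of rho for these 5 pairs ran from 0.0153 to 0.0364. For them r without the 2 farthest arrays was 0.48 to 0.64. CCT4 with CCT7 (0.57) and CCT2 with CCT8 (0.57) no longer passed there. Over all pairs, 4 passed there in place of 6. Whether CCT2 with HSPD1 (0.48) was among them was not examined. CCT2 with CCT8 was also lost with slide removed (0.50), and CCT4 with CCT7 under normexp background correction (0.51).

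Within the cytosolic ring, 2 of 21 pairs passed, CCT2 with CCT8 and CCT4 with CCT7. CCT3, which was lower in HS, had r = 0.54 with CCT8 (adjusted permutation p = 0.0899) and r = 0.12 with TCP1 (adjusted permutation p = 0.724). TCP1 passed with none, its highest r being 0.34 with HSPD1 (adjusted permutation p = 0.522). The values share an array and its normalisation.

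**Figure D5:**
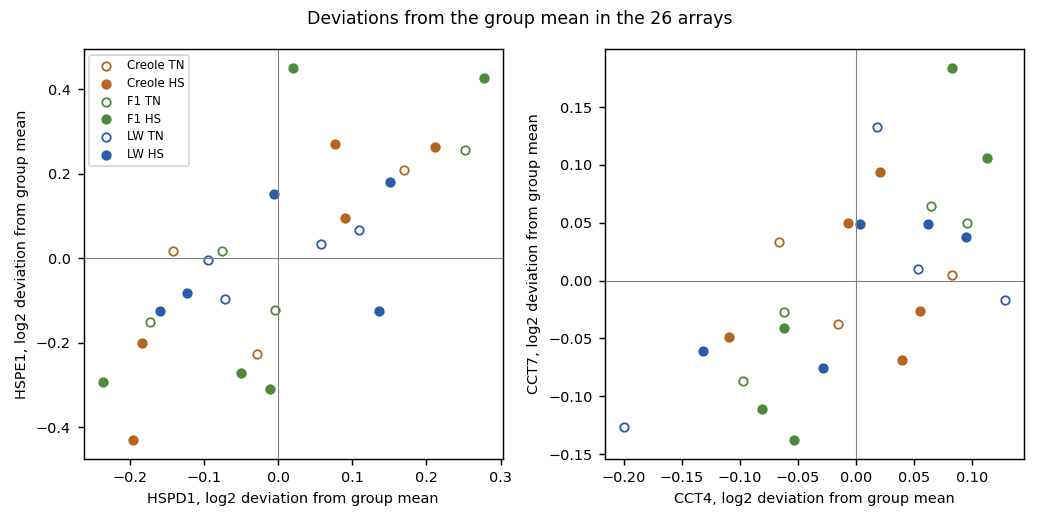
Deviations of log2 intensity from the group mean in the 26 arrays, 1 point per array coloured by group, for HSPD1 with HSPE1 (left) and CCT4 with CCT7 (right), open for TN and filled for HS. Pigs with a higher HSPD1 than their group mean mostly had a higher HSPE1 too (r = 0.72), and likewise for CCT4 and CCT7 (r = 0.64), a pair that did not pass without its 2 farthest arrays.

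Among all named genes the members were not each other's nearest. As a description over the same 26 arrays, the genes outside the list most like HSPD1 were CEP350 (r = 0.86), CALM3 (0.83) and SUCLG1 (0.80), and HSPE1 ranked 27 among all named genes. For HSPE1 they were UQCR10 (0.93) and NDUFB3 (0.91), subunits of the respiratory chain, and the small heat shock protein HSPB1 (0.91), with HSPD1 at rank 173. For the mean of the 7 CCT subunits they were PRMT5 (0.76), CEP350 (0.75) and DLD (0.74).

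The probes of 1 gene can be set beside each other in the same way. The 210 pairs of HSPD1 probes had a median r of 0.82, from 0.17 to 0.98. The 15 HSPE1 pairs had a median of 0.65 and the 21 TCP1 pairs one of 0.44. For CCT2 the median of 6 pairs was −0.14, and for CCT8 that of 3 pairs was −0.06. Among these, the CCT8 probes A_72_P202637 and O10713, both lower in HS, had r = 0.57, and the pairs of either with the dim A_72_P236912 were at −0.06 and −0.19. For CCT2 the pairs ran from −0.39 to 0.53.

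The partners of the cytosolic ring were read from lists chosen by function, against a background of 7.68% of named genes lower in HS and 8.61% lower in LW. Of 8 tested subunits and relatives of prefoldin, PFDN4 (−0.18, adjusted p = 0.0154 in limma) and UXT (−0.23, adjusted p = 0.0152) fell in HS and none rose, with a median of −0.05, and PDRG1 (0.30, adjusted p = 0.0138) was higher in LW than in Creole. None of 2 phosducin-like genes passed in either comparison. Of the 6 tubulin cofactors, which assemble the tubulin dimer after CCT, TBCE fell in HS by 0.29 (adjusted p = 0.0226), and TBCE (−0.43) and TBCB (−0.22) were lower in LW. None of 3 chaperonin-like relatives passed, MKKS being at −0.18 (adjusted p = 0.268) in HS and −0.20 (adjusted p = 0.307) in LW.

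Of 15 proteins known to be folded by CCT, 3 had a transcript that differed between HS and TN, beside 12.6% of all named genes in either direction. PLK1 (−0.30, adjusted p = 0.0024 in limma) and CDC20 (−0.67, adjusted p = 0.000855), both of the cell cycle, fell in HS, and ACTB, cytoplasmic actin, rose by 0.14 (adjusted p = 0.0215). The PLK1 and CDC20 probes were dim, at mean log2 intensities of 6.06 and 6.65. The tubulin genes TUBB (−0.05, adjusted p = 0.775) and TUBA1B (−0.03, adjusted p = 0.922) did not pass. The median of the list was −0.02. In LW minus Creole GNB2, a G protein beta subunit, was higher in LW by 0.17 (adjusted p = 0.0346 in limma), 1 of 15, and none was lower.

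Around the mitochondrial pair, of 8 other mitochondrial chaperones and import partners, DNAJC19 (−0.21) and TIMM44 (−0.29), which help to draw proteins into the matrix, fell in HS, with a median of −0.05. Lower in LW were TRAP1 (−0.88, adjusted p = 0.00673 in limma), the HSP90 of mitochondria, DNAJA3 (−0.32), DNAJC19 (−0.29) and TIMM44 (−0.49), with a median of −0.20 for the list. HSPA9, the mitochondrial HSP70, was at 0.01 in HS and 0.27 in LW (adjusted p = 0.0516 in limma). Its probe was dim, at a mean log2 intensity of 6.65.

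Of 9 mitochondrial proteases and related genes, SPG7 (−0.21) and PMPCB (−0.36) fell in HS, with a median of −0.12. Lower in LW were SPG7 (−0.38), HTRA2 (−0.33), PMPCA (−0.34), CLPB (−0.30) and LONP1 (−0.23), 5 of 9 beside 8.61% of all named genes, with a median of −0.23 beside −0.01. The PMPCA and CLPB probes were dim, at mean log2 intensities of 6.09 and 6.59. Of 5 stress transcription factors none passed in either comparison. The HSP70 and HSP110 genes, of the cytosol and the endoplasmic reticulum, gave 3 of 12 lower in HS (HSPA12A, HSPA13 and HSPA14), beside 7.68% of all named genes, and 4 of 12 lower in LW, beside 8.61%, while of 3 HSP90 genes HSP90B1, of the endoplasmic reticulum, rose in HS by 0.21 (adjusted p = 0.0111 in limma).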

How the data were processed

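Raw scanner tables of 26 arrays were used. Per the labels and the methods, the authors hybridised Cy3-labelled RNA of single pigs and extracted spot intensity (median pixel intensity) with Agilent Feature Extraction 10.10.1.1; the deposited flag columns were read as other values, and the deposited series matrix holds quantile-normalised log2 values of the same arrays (44104 probes, used as an alternative). Here the deposited median intensities were quantile-normalised without background correction and taken to log2, non-uniform spots were dropped, spots of a probe averaged, and probes kept if well above background on at least 8 arrays (44703 of 60305). limma 3.58.1 in R 4.3.3 was fitted to all probes on all arrays (eBayes with trend), with breed and temperature, or with 6 group means. The threshold was an adjusted p of 0.05. The tests were checked on simulated data. Groups came from the breed and temperature labels; pen, litter and slaughter day, terms of the study's model, are not in the labels and were left out.

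The chaperonin genes and all lists were chosen with earlier results of these data known. The 10 genes are named by their brightest tested probe, partner lists by genes passing, and most alike genes by the 3 highest correlations. As CCT6A had no probe, 36 pairs and 7 CCT subunits replaced the planned 45 pairs and 8 subunits. Gene names came from the probe annotation and 2 name tables, of which the RefSeq one also gave the gene order of HSPD1 and HSPE1, and no probe was placed on a genome. The number of arrays, 3 to 5 per group, limits the precision. Alternatives were background correction, scaling, filters, probe summary, slide, array weights, trend, red blood cell score and single arrays left out. A marker gene's result is not reported here.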

Additional observations from a re-analysis of the deposited data

Results flagged for a closer look

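In 2 of the 50 groups of 4 or 5 arrays examined for the 9 representative probes and the HSPE1 probe O8477, 1 array stood apart from the rest of its group; chance gives about 1 in 20. Both were values of the CCT5 probe O14583. In F1 TN array 3 read 12.71, whereas the others read 13.19 to 13.29. In F1 HS array 3 read 12.54, whereas the others read 13.09 to 13.17. Both arrays belong to the lower set of 9 arrays described for this probe.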

How the results depend on the processing

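The LW minus Creole differences of HSPD1 (−0.44 to −0.32, adjusted p at most 0.0128 in limma) and TCP1 (−0.33 to −0.21, adjusted p at most 0.02) passed under all 12 alternatives and all 26 fits without 1 array. The CCT3 change in HS passed in all but the red blood cell covariate (range of adjusted p 0.00191 to 0.107) and in all 26 fits without 1 array (−0.28 to −0.24). The count of genes past the threshold for HS minus TN, 2 as reported, was 4 with processed signal scaled to the 75th percentile, 1 with cyclic loess, no filter, the mean of all probes of a gene, slide as a fixed block or no breed term, 0 with the red blood cell covariate, and 1 to 2 without 1 array. Where 1 gene was left it was CCT3, and CCT8 was lost. Among the fits without 1 array, CCT8 was kept without F1 TN 1, 2 or 4, Creole HS 2 or 3, LW TN 1, LW HS 5, Creole TN 3, or F1 HS 4 or 5, and lost without any other. With the 75th percentile, LW minus Creole gave 5 genes and any breed difference 4, in place of 2, and 15 pairs of genes correlated in place of 6. Within LW the count of 1 became 0 under normexp, cyclic loess, no filter, the mean of all probes, slide as a fixed block, no intensity trend and the red blood cell covariate, and was 0 to 1 without 1 array, the call staying without Creole HS 1, 2, 3 or 5, F1 HS 2 or 4, or F1 TN 3. In fits of all slides together signs turned only where no test passed: TCP1 in HS at −0.074 (75th percentile) and −0.011 (mean of probes), CCT4 in HS at −0.030 (mean of probes), HSPE1 in HS at 0.051 (red blood cell covariate) and −0.057 to 0.013 without 1 array, and CCT5 in F1 minus LW at −0.054 (slide block) and −0.010 to 0.11 without 1 array. Within single slides, with no test, the HS minus TN sign also turned for TCP1, CCT2, CCT4, CCT7, HSPD1 and HSPE1, reaching 0.11 for HSPD1 and 0.30 for HSPE1, but not for CCT3, CCT5 or CCT8. HSPE1 in LW minus Creole passed under 6 of 12 alternatives and 6 of 26 fits without 1 array (adjusted p 0.0148 to 0.105). HS minus TN calls over all probes were 911 with the red blood cell covariate and 3531 without breed, beside 5452. The causes were not tested. No paired analysis was possible because the labels do not tie arrays to litters.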
